A study of Mus musculus with 75 samples.

Results

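Liver tumors of 10-month-old mice (7 libraries) were compared with the livers of 5-month-old mice that the labels call high risk (10 libraries). These 17 libraries are part of the 75 of the series, and they were taken by their age and group labels alone, with no expression value used. The mice were male C57Bl/6 of wild type, and every mouse of both groups was born to a dam given tributyltin (TBT, an organic tin compound) in drinking water until weaning, at a daily 0.5 mg per kg of body weight, given also as 3.07 µM. Livers of exposed mice of 5 and 10 months were labelled low or high risk, those of high risk at 10 months also as uninvolved liver, and the tumors carry the label Tumor in place of a risk label. How a liver came to be called high risk at 5 months, when no tumor is labelled, is not given in the sources used here, so the 5-month label may rest on expression in these same libraries. The tumors were 5 months older than the livers they were compared with, and within the 17 libraries age and tumor cannot be told apart. The labels number the libraries but do not state that each is a separate mouse, so p-values measure the spread between these samples.

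Total liver RNA mixes hepatocytes, which make most of it, with macrophages (Kupffer cells), stellate cells, endothelium and bile duct cells. Hepatocytes carry enzymes of conjugation (glutathione transferases and UDP-glucuronosyltransferases), bile acid synthesis and fatty acid oxidation, and in rodents many of their genes are set to a male or female level by the pattern of growth hormone. Hepatocyte tumors can keep most of these programs, and are often followed by fetal genes such as Afp and H19 and by genes of mitosis. In bulk RNA, fewer cells of a type and less RNA per cell cannot be told apart.

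Depth ran from 22.5 to 27.9 M counts (M, mega) in tumors and from 7.79 to 45.4 M in the high-risk livers. All 7 tumors and the high-risk livers 4, 9 and 15 were sequenced in batch 1, and the other 7 high-risk livers in batch 2. High-risk 10 stood apart with 39669 genes detected (22609 to 23868 in tumors) and high-risk 15 with 14.5% of counts from the mitochondrial genome (2.64 to 3.46% in tumors). The summed counts per M counts (CPM) of 8 hepatocyte markers were 88257 to 127065 in tumors and 85922 to 176349 in high-risk livers, so hepatocyte markers were abundant in both groups. Markers of pancreatic acinar cells summed to at most 70.4 CPM (high-risk 1) and none of the 9 was high enough in these libraries to be tested.

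The first comparison asks which genes separate a tumor from the liver of a younger exposed mouse labelled high risk. Of 14614 genes tested with edgeR, 222 were higher and 271 lower in tumors at an adjusted p under 0.05 (such genes are said to be called), which is 3.37% (1.52% higher and 1.85% lower). Protein-coding genes made up 204 of the higher and 253 of the lower genes. Of these 493 genes 159 differed by over 2-fold, and 130 of the 159 were lower in tumors. The balance of directions differed in a fit of 58 libraries of 5 and 10 months, where 698 genes were called higher and 358 lower. In 73 genes (0.5%) the tumor and high-risk libraries did not overlap in CPM, with the tumors above in 56 (0.383%) and below in 17 (0.116%).

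Within batch 1, the 7 tumors against the 3 high-risk livers 4, 9 and 15 gave 74 higher (0.445%) and 95 lower genes (0.571%) of 16632 (1.02% in all), and 88 of the 493 genes were called here too. These 2 fits share 10 libraries. With batch as a covariate over all 17 libraries 85 genes were called (0.582%), 25 higher (0.171%) and 60 lower (0.411%), and without high-risk 10 and 15 the count was 264 of 15397 (1.71%), 110 higher (0.714%) and 154 lower (1%).

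**Figure D1:**
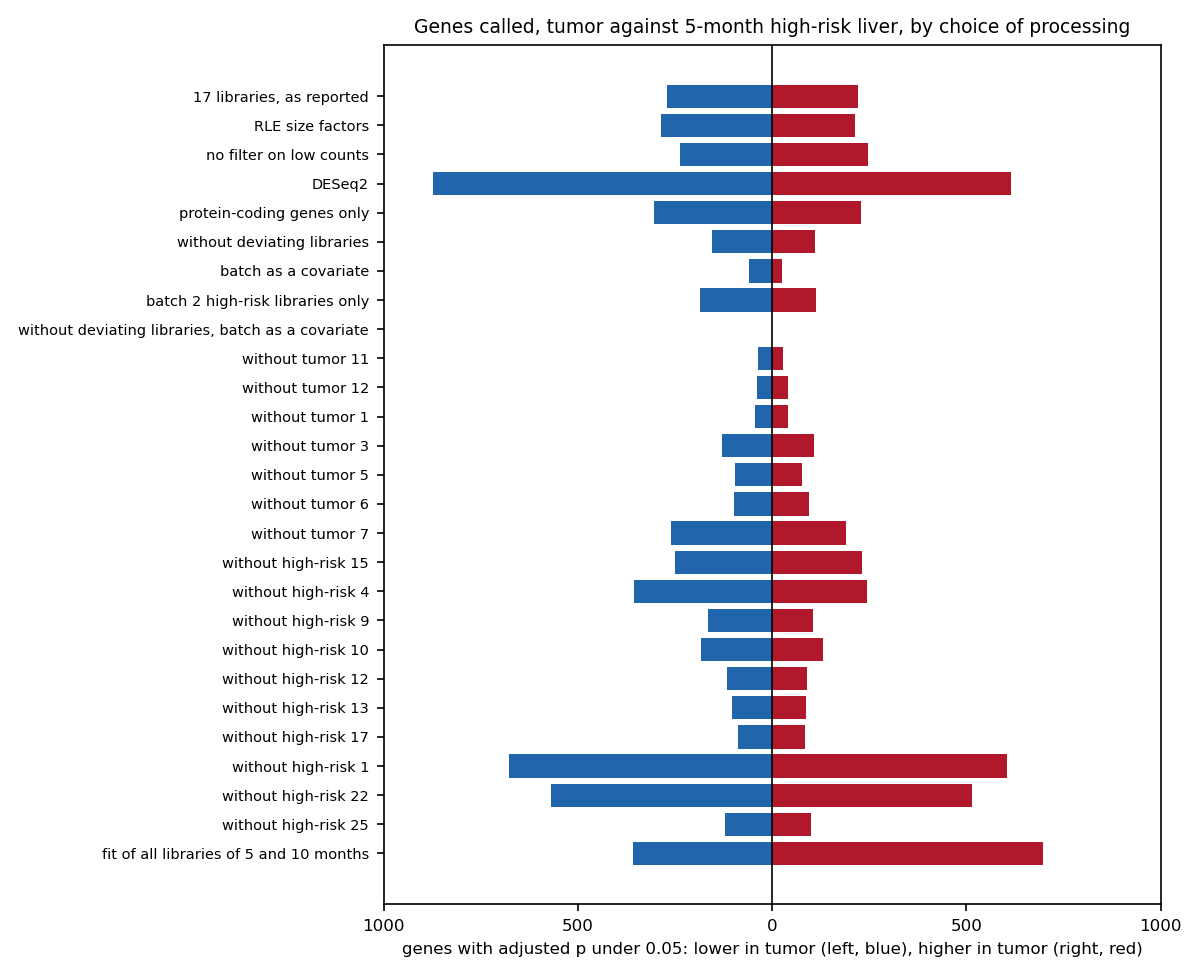
Bars give the number of genes with an adjusted p under 0.05 for tumor against 5-month high-risk liver. They run left for genes lower in tumors and right for genes higher in tumors. The reported fit and its alternatives are drawn (leaving out 1 library at a time among them). The replicate block fit and the same 4 libraries without a block are not drawn. The reported 493 genes fell to 63 without tumor 11 and reached 1282 without high-risk 1.

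The count rested on single libraries of both groups. It was 63 without tumor 11, 79 without tumor 12, 86 without tumor 1, 174 without tumor 5, 192 without tumor 6 and 236 without tumor 3. On the other side it was 174 without high-risk 17, 189 without high-risk 13, 206 without high-risk 12, 219 without high-risk 25, 269 without high-risk 9 and 315 without high-risk 10. It was larger, at 1082 and 1282, without high-risk 22 and high-risk 1, and moved by under 1.5 times without tumor 7, high-risk 4 or high-risk 15.

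The genes described next are the 12 that passed the test in the 17 libraries and in batch 1 alone with no overlap between groups and at least 5 CPM in the higher one, predicted genes left out. Of these, 8 were higher and 4 lower in tumors, and since the test chose them, their folds are a description. For 10 of the 12 the call held when any of the 17 libraries was left out. Klkb1 lost it without tumor 1, 5 or 11 (adjusted p up to 0.0589), and Qdpr lost it in 11 of 17 cases (adjusted p up to 0.0748).

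Serpina12 encodes vaspin, a secreted serine protease inhibitor of the serpin family, on chromosome 12 (104028769 to 104044443 of GRCm38, minus strand). It had 33.9, 60.1 and 147 CPM in the lowest, median and highest tumor, against 2.51, 9.94 and 23.7 CPM in high-risk livers. Every tumor lay above every high-risk liver, and the 3 high-risk livers of batch 1 had 8.55, 23.7 and 9.14 CPM (4, 9 and 15). The log2 fold change was 2.79 (SE 0.39, adjusted p = 0.00338), and 2.36 (adjusted p = 0.0324) in batch 1. With batch as a covariate the adjusted p was 0.0694, and the call was lost.

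Dsg1c, a desmoglein, which is a cadherin of desmosomes, lies on chromosome 18 (20247340 to 20285031, plus strand). Its levels were 11.8, 23.9 and 52.6 CPM in the lowest, median and highest tumor and 3.54, 5.42 and 8.15 CPM in high-risk livers. The groups were separate although the tumors spread over a wide range, with tumor 1 at the top and tumor 7 at the bottom. The log2 fold change was 2.21 (SE 0.27, adjusted p = 0.00208), and it was also called in batch 1 (2.37, adjusted p = 0.0368) and with the batch covariate (adjusted p = 0.0255). Closely similar desmoglein genes lie beside it, and reads shared between copies could have been counted to either.

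Sucnr1, the cell surface receptor for succinate, lies on chromosome 3 (60081869 to 60087566, plus strand). Tumors had 16.5, 22.3 and 37.4 CPM, and high-risk livers 4.53, 8.18 and 15.6 CPM, lowest, median and highest. The gap between the groups was narrow, with tumor 7 (16.5 CPM) next to high-risk 1 (15.6 CPM). The log2 fold change was 1.40 (SE 0.27, adjusted p = 0.0145), 1.38 in batch 1 (adjusted p = 0.0296), and not called with the batch covariate (adjusted p = 0.0885).

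Apol7a, of the apolipoprotein L family (chromosome 15, 77388219 to 77399110, minus strand), had 88.9, 102 and 123 CPM in tumors and 27.6, 40.6 and 80.9 CPM in high-risk livers. Here the tumors lay close together, and high-risk 1 at 80.9 CPM was the only high-risk liver above 48.7 CPM. Its log2 fold change was 1.25 (SE 0.18, adjusted p = 0.00338), with calls in batch 1 (1.35, adjusted p = 0.0148) and under the batch covariate (adjusted p = 0.0401). Klkb1 encodes plasma prekallikrein, which hepatocytes secrete (chromosome 8, 45266689 to 45294859, minus strand). It had 153 to 208 CPM in tumors (median 182) and 81.1 to 147 CPM in high-risk livers (median 111), a log2 fold change of 0.67 (SE 0.15, adjusted p = 0.0284). Without high-risk 10 and 15 its adjusted p was 0.0525.

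The other 3 higher genes differed less in fold but kept the groups apart. Nadk2, the mitochondrial NAD kinase (chromosome 15, 9071260 to 9110891, plus strand), had 210 to 295 CPM in tumors (median 250) and 118 to 196 CPM in high-risk livers (median 149). Its log2 fold change was 0.72 (SE 0.11, adjusted p = 0.00627), the same 0.72 in batch 1 (adjusted p = 0.0381), and 0.0558 was the adjusted p with the batch covariate. Car8, a carbonic anhydrase-related protein that lacks the enzyme's activity (chromosome 4, 8143362 to 8239041, minus strand), had 80.8 to 101 CPM in tumors (median 89.4) and 44.5 to 66.7 CPM in high-risk livers (median 52.6). Both groups were tight, and its log2 fold change of 0.71 (SE 0.12, adjusted p = 0.00881) was 0.92 in batch 1 (adjusted p = 0.0105). Qdpr, the dihydropteridine reductase that regenerates tetrahydrobiopterin (chromosome 5, 45434021 to 45450236, minus strand), had 188 to 274 CPM in tumors (median 210) and 93.0 to 182 CPM in high-risk livers (median 145), a log2 fold change of 0.56 (SE 0.14, adjusted p = 0.0381).

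On the lower side, Cyp4a31, a fatty acid hydroxylase of the cytochrome P450 4A family (chromosome 4, 115563649 to 115579015, plus strand), differed most. It had 0.773, 2.34 and 6.85 CPM in the lowest, median and highest tumor and 10.6, 33.7 and 70.6 CPM in high-risk livers. No tumor reached the lowest high-risk liver, number 9 of batch 1. The log2 fold change was -3.57 (SE 0.48, adjusted p = 0.00338), -2.79 in batch 1 (adjusted p = 0.0351), and it was called with the batch covariate (adjusted p = 0.0255). Its relatives Cyp4a14 and Cyp4a10 did not pass the test in these libraries. Cyp4a14 had 11.5, 78.9 and 448 CPM in tumors and 286, 555 and 833 CPM in high-risk livers (log2 fold change -1.99, adjusted p = 0.0535), and Cyp4a10 gave -0.83 (adjusted p = 0.383). Reads that the Cyp4a copies share could be counted to more than 1 of them.

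Peg3, a zinc finger gene expressed from the paternal copy (chromosome 7, 6703892 to 6730431, minus strand), had 2.90, 5.77 and 7.62 CPM in tumors and 9.41, 19.6 and 58.0 CPM in high-risk livers. The high-risk livers of batch 1 held 9.41, 14.3 and 17 CPM (4, 9 and 15), while batch 2 reached from 10.0 to 58.0 CPM, so the difference was smaller against the livers of batch 1. The log2 fold change was -2.38 (SE 0.38, adjusted p = 0.00792) over all libraries and -1.32 (adjusted p = 0.0416) in batch 1, and the adjusted p with the covariate was 0.0848.

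Sod3, the extracellular superoxide dismutase (chromosome 5, 52363791 to 52371418, plus strand), had 14.7, 15.9 and 21.6 CPM in tumors and 22.5, 40.9 and 65.6 CPM in high-risk livers. High-risk 1 (22.5 CPM) came closest to the tumors and high-risk 15 was highest. Its log2 fold change was -1.20 (SE 0.19, adjusted p = 0.0052), -1.24 in batch 1 (adjusted p = 0.0324). Aig1, a membrane hydrolase of fatty acid esters (chromosome 10, 13647054 to 13868980, minus strand), had 9.15 to 13.3 CPM in tumors (median 10.9) and 13.5 to 24.3 CPM in high-risk livers (median 20.2). The tumors and the 3 batch 1 livers (22.8, 23 and 24.3 CPM) were far apart, and the nearest livers, 1 and 22, were of batch 2. The log2 fold change was -0.81 (SE 0.13, adjusted p = 0.00792), -1.07 in batch 1 (adjusted p = 0.021). Both Sod3 and Aig1 were called with batch as a covariate (adjusted p = 0.0263 and 0.0164).

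**Figure D2:**
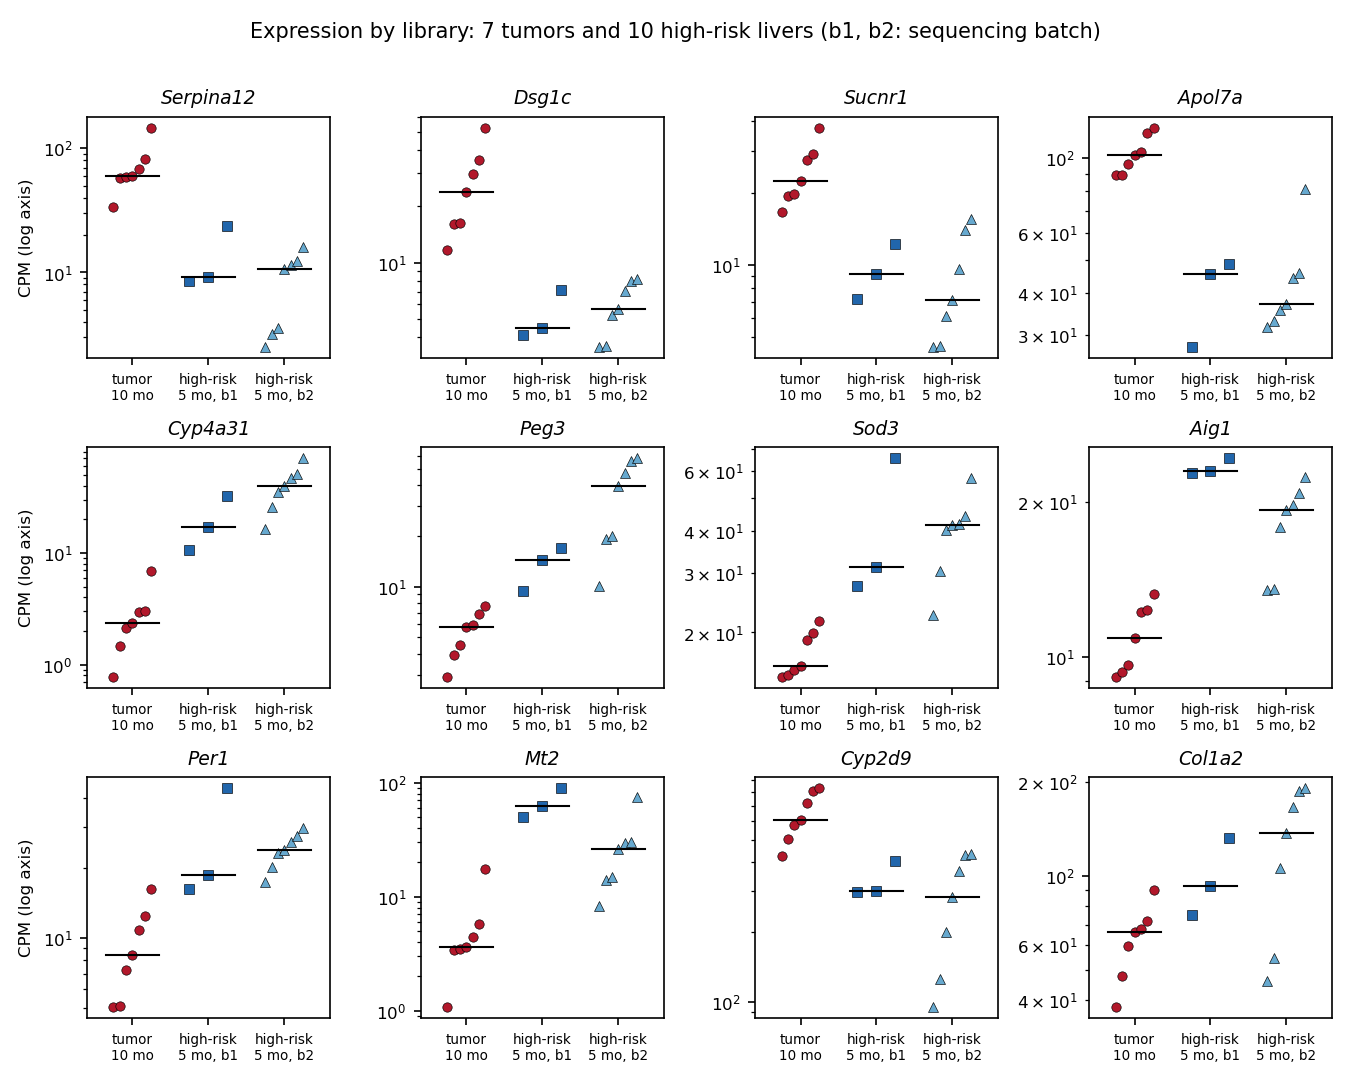
Each point is 1 library on a log axis of CPM, for 12 named genes, with tumors in red and the high-risk livers of batch 1 and batch 2 in dark and light blue, and the black line is the median. Serpina12 tumors (33.9 to 147 CPM) sit above and Cyp4a31 tumors (0.773 to 6.85 CPM) below every high-risk liver, while Cyp2d9 and Col1a2 overlap.

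The other liver groups place these differences. They were vehicle livers (8 at 5 months, 6 at 10 months), low-risk TBT livers (16 and 5) and uninvolved liver of high-risk mice of 10 months (6 libraries, of which 3 and 6 were nearly the same and were counted as 1). Over the 7 group means of each gene, the 5-month high-risk mean was the lowest or highest in 11 of these 12 genes, the tumor mean in 4, and both in 3 (Cyp4a31, Dsg1c and Peg3). The exception was Nadk2, which was lowest in 5-month vehicle livers and highest in tumors. The 12 genes were chosen for no overlap between tumors and 5-month high-risk livers, which favours these 2 groups at the edges. The share over all genes was not computed. Near ties were Car8 and Dsg1c, at 55.0 and 5.69 CPM in 5-month high-risk livers and 55.2 and 5.80 in 5-month vehicle livers. Serpina12 was lowest in 5-month high-risk livers. Its means were 85.5 ± 57.5 CPM (SD, n = 8) in vehicle and 101 ± 44.3 (n = 16) in low-risk livers of 5 months, 118 ± 44.7 (n = 6) and 124 ± 12.6 (n = 5) at 10 months, and 48.7 ± 10.6 (n = 5) in uninvolved liver. Against these, tumors held 72.6 ± 35.7 CPM (n = 7) and 5-month high-risk livers 10.1 ± 6.5 (n = 10).

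Cyp4a31 lay between 3.94 and 7.31 CPM in the means of the vehicle, low-risk and uninvolved groups, near the tumors (2.8 ± 1.96 CPM, SD, n = 7) and far from the 5-month high-risk livers (34.5 ± 18.4 CPM, n = 10). Peg3 was alike, with means of 5.77 to 8.78 CPM in those 5 groups, 5.36 ± 1.67 CPM in tumors and 29 ± 19 CPM in 5-month high-risk livers. Dsg1c differed in that tumors were themselves high. They held 26.6 ± 14.2 CPM, against 18.2 ± 5.5 in uninvolved liver, 11.8 to 13.9 in both low-risk groups and 10-month vehicle livers, 5.80 ± 2.96 in 5-month vehicle livers and 5.69 ± 1.78 in 5-month high-risk livers. Sucnr1 in tumors (24.5 ± 7.21 CPM) was below 10-month vehicle (58.5 ± 11.2) and low-risk livers (48.4 ± 4.36), and the 5-month high-risk mean of 9.01 ± 3.85 was the lowest of all.

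**Figure D3:**
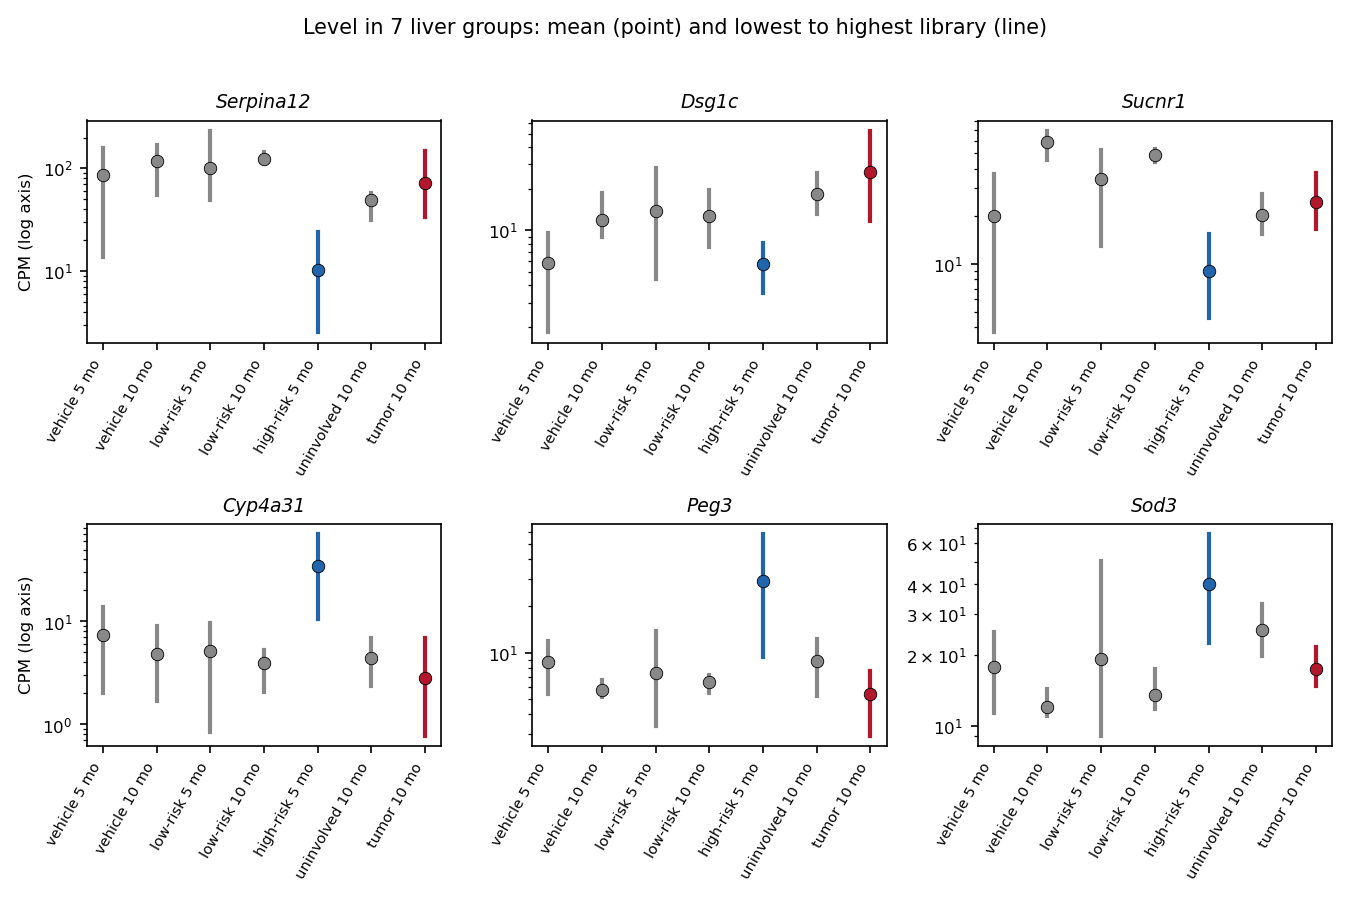
Points give the group mean and lines the lowest to highest library on a log axis of CPM for 6 named genes in 7 liver groups, with 5-month high-risk in blue and tumors in red (uninvolved libraries 3 and 6 averaged to 1). The blue mean is the lowest or highest in all 6 panels, for example at 34.5 CPM for Cyp4a31, where no other mean is above 7.31 CPM. For Dsg1c it is close to the 5-month vehicle mean (5.69 and 5.80 CPM), and the ranges overlap.

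To ask how far age alone goes with these differences, the tumor minus high-risk difference was set against that of 10-month minus 5-month livers in a fit of 58 libraries. Vehicle livers differed between the ages in 1603 of 18401 genes (8.71%, 450 or 2.45% higher and 1153 or 6.27% lower at 10 months). Of the 12 genes above, 7 were among them, all 7 in the direction of the tumors (Aig1, Apol7a, Car8, Dsg1c, Klkb1, Nadk2 and Sucnr1). Car8 rose by a log2 fold change of 0.98 with age in vehicle livers (adjusted p = 0.000113), and Sucnr1 by 1.52 (adjusted p = 0.00189). The 5-month vehicle livers include vehicle 9, which had only 2.83 M counts and 38206 genes detected. The count of 1603 and the age differences of single genes in vehicle livers, here and below, are not given without it. For no gene did the tumor minus high-risk difference depart from the vehicle age difference by edgeR at an adjusted p under 0.05 (0%), while 2097 genes had an unadjusted p under 0.05 and DESeq2 called 142. A count of 0 does not show that the differences are equal: for Cyp4a31 the departure was -2.89 (adjusted p = 0.092) and for Serpina12 it was 2.35 (adjusted p = 0.119).

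Low-risk livers, exposed like the high-risk ones, gave 0 calls between 10 and 5 months by edgeR (0% of 18401, with 1910 at an unadjusted p under 0.05). The tumor minus high-risk difference departed from theirs in 4 genes (0.0217%, 1 or 0.00543% higher and 3 or 0.0163% lower, with 1113 at an unadjusted p under 0.05 and 41 called by DESeq2). Dsg1c departed by 2.44 (SE 0.45, adjusted p = 0.0117), Cyp4a31 by -3.09 (SE 0.58, adjusted p = 0.0117) and Peg3 by -2.0 (SE 0.38, adjusted p = 0.0117). The fourth, Unc13b, which encodes a synaptic vesicle priming protein also found outside neurons, was named after its value was seen. It departed by -1.36 (SE 0.24, adjusted p = 0.0112), with means of 22.3 CPM in tumors, 31.3 in 5-month high-risk, 32.3 in 10-month low-risk and 16.4 in 5-month low-risk livers. In batch 1 alone, 0 genes departed, and without 10-month low-risk 4 the count was 1.

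Tumors were also set against uninvolved liver of the same age, where 1588 of 18401 genes were called (8.63%, 850 or 4.62% higher and 738 or 4.01% lower). Of the 58 genes named by rule (the 12 above and the leading genes of each gene list) 6 were called, which is near that share. The uninvolved libraries stood apart from the tumors in depth (34.8 to 44.6 M counts), genes detected (24676 to 28715) and mitochondrial counts (4.20 to 5.85%), and the part of this in the differences was not tested. Higher in tumors were Nadk2 (0.54, SE 0.15, adjusted p = 0.017), the glucuronosyltransferase Ugt2b36 (0.59, SE 0.20, adjusted p = 0.0453) and osteopontin, Spp1 (1.54, SE 0.51, adjusted p = 0.0492). Lower were the methylcytosine dioxygenase Tet2 (-0.69, SE 0.23, adjusted p = 0.0483), the mitochondrial tRNA gene mt-Th (-1.78, SE 0.56, adjusted p = 0.0362) and the small nuclear RNA Rn7sk (-1.03, SE 0.24, adjusted p = 0.00585). Nadk2 had 247 ± 35.5 CPM (SD, n = 7) in tumors, 173 ± 33.2 (n = 5) in uninvolved and 150 ± 21.4 (n = 10) in 5-month livers.

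Tumor and uninvolved libraries carry the same numbers in their titles, and a fit with the number as a block over 1, 5, 7 and 12 called 13 of the 58 named genes, 9 higher and 4 lower, where 18.2% of 16728 genes were called (9.21% higher and 8.95% lower). Among them were Serpina12 (0.60, SE 0.17, adjusted p = 0.048), Qdpr (0.47, SE 0.13, adjusted p = 0.0477), Per1 (-0.87, SE 0.16, adjusted p = 0.0208) and Mt2 (-1.44, SE 0.24, adjusted p = 0.0185). None of these 4 was called without the block in the fit of 58 libraries. Conversely, Nadk2 (0.47, adjusted p = 0.0693) and Tet2 (-0.76, adjusted p = 0.0698) were not called with the block, while the other 4 genes called in the fit of 58 libraries were.

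Lists of genes by role were written from general knowledge of the liver, with earlier results of these data known. They are described by counts and medians beside those of all genes (3.37% called, a median log2 fold change of -0.00, 7221 of 14614 positive). Of the 20 called genes named from these lists, Lox and Per1 kept the call without any single library, and the other 18 all lost it without tumor 11, with an adjusted p of at most 0.1 in any of the 17 cases. Conjugating enzymes were higher in tumors most evenly. All 12 tested genes of glutathione and glucuronide conjugation had a positive log2 fold change (median 0.66), and 5 were called higher, Gsta2, Gsta3, Ugt2b5, Ugt2b35 and Ugt2b36. Gsta3, a glutathione transferase, had 924, 1256 and 1615 CPM in the lowest, median and highest tumor and 612, 804 and 1051 CPM in high-risk livers (log2 fold change 0.67, SE 0.16, adjusted p = 0.0301). Only tumor 3 lay below the highest high-risk livers, 17 and 22. In vehicle livers Gsta3 was also higher at 10 than at 5 months (0.95, adjusted p = 0.00046 by edgeR in the fit of 58 libraries). Its tumor mean of 1280 CPM lay below those of 10-month vehicle (1741) and low-risk livers (1619). For Ugt2b36 the tumor mean of 635 CPM lay above them (521 and 493). Ugt2b36 had 485 to 842 CPM in tumors and 295 to 547 CPM in high-risk livers (0.62, SE 0.15, adjusted p = 0.0355), and Gsta2 36.2 to 160 CPM and 25.2 to 90.6 CPM (1.07, SE 0.28, adjusted p = 0.045). Without high-risk 10 and 15 none of the 12 was called (median 0.59), and in batch 1 both Gsta2 and Gsta3 were (median 0.88). Members of these families resemble each other in sequence, and reads may be split among them. Of the 12 targets of NRF2, the factor that induces many conjugating and antioxidant genes, 0 were called by edgeR, 9 had a positive log2 fold change and 7 had an unadjusted p under 0.05 (median 0.44).

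Levels of sex-biased genes differed between the sequencing batches of the younger livers. Male-biased genes summed to 3142 to 5235 CPM in tumors, 1884 to 4103 in the high-risk livers of batch 1 and 283 to 1932 in those of batch 2. Of 12 tested, 2 were called higher in tumors (median 1.01, 11 positive), and the median was 1.07 with all 12 positive both in batch 1 and with batch as a covariate. Cyp2d9, a male-biased steroid hydroxylase, had 427, 606 and 832 CPM in tumors and 94.4, 298 and 435 CPM in high-risk livers (1.12, SE 0.28, adjusted p = 0.0395), where only 1 tumor lay within the high-risk range. Ugt2b38 had 9.22 to 31.4 CPM in tumors and 1.84 to 14.4 CPM in high-risk livers (1.47, SE 0.35, adjusted p = 0.0355). Neither was called in batch 1, where Cyp2d9 gave 0.95 (adjusted p = 0.07) and Ugt2b38 gave 1.43 (adjusted p = 0.0793). The Cyp2d9 mean of tumors (639 CPM) was below those of vehicle (807 and 1358) and low-risk livers (1023 and 1082) of 5 and 10 months. For Ugt2b38 the tumor mean (18.1 CPM) was above those groups (9.54 to 11.7). The 8 tested female-biased genes had a median of -1.72 in the 17 libraries with 0 called by edgeR and 4 at an unadjusted p under 0.05. That median was 0.67 over 10 genes in batch 1 and 0.76 with batch as a covariate, so its sign turned with the batch term. Cyp2b9, a female-biased P450, ranged from 0.117 to 6.36 CPM in tumors and from 0 to 151 CPM in high-risk livers (-5.21, adjusted p = 0.0509).

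Bile acid genes were mostly positive, 14 of 16 tested with a median of 0.29 and 1 called. That gene was Akr1d1, the steroid 5-beta-reductase of bile acid synthesis, with 198, 205 and 254 CPM in tumors and 86.8, 127 and 216 CPM in high-risk livers (0.73, SE 0.18, adjusted p = 0.0361, and 1.01, adjusted p = 0.0209, in batch 1). Only high-risk 22 (216 CPM) reached the tumors. The call was lost in 11 of 17 cases of leaving out 1 library, namely each of the 7 tumors and high-risk 9, 12, 13 and 17. In vehicle livers Akr1d1 was also higher at 10 than at 5 months (1.05, edgeR adjusted p = 0.000407). Its 10-month means were 260 CPM in vehicle and 217 in low-risk livers, against 220 in tumors. Nr0b2, the bile acid responsive repressor SHP, had an adjusted p of 0.0512 (0.82) and was called in batch 1 (1.36, adjusted p = 0.0433). Cyp7a1, the rate-limiting enzyme of bile acid synthesis, gave 0.14 (adjusted p = 0.866). Targets of PPAR-alpha and fatty acid oxidation centred on 0.13, and of 21 tested only Acot1, an acyl-CoA thioesterase, was called, lower in tumors (-0.97, SE 0.24, adjusted p = 0.0414). Of 19 lipogenic genes 1 was called, the desaturase Fads2, also lower (-0.66, SE 0.18, adjusted p = 0.0485), and of 22 cholesterol genes 0 were called by edgeR with 3 at an unadjusted p under 0.05 (median 0.22, 16 positive).

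**Figure D4:**
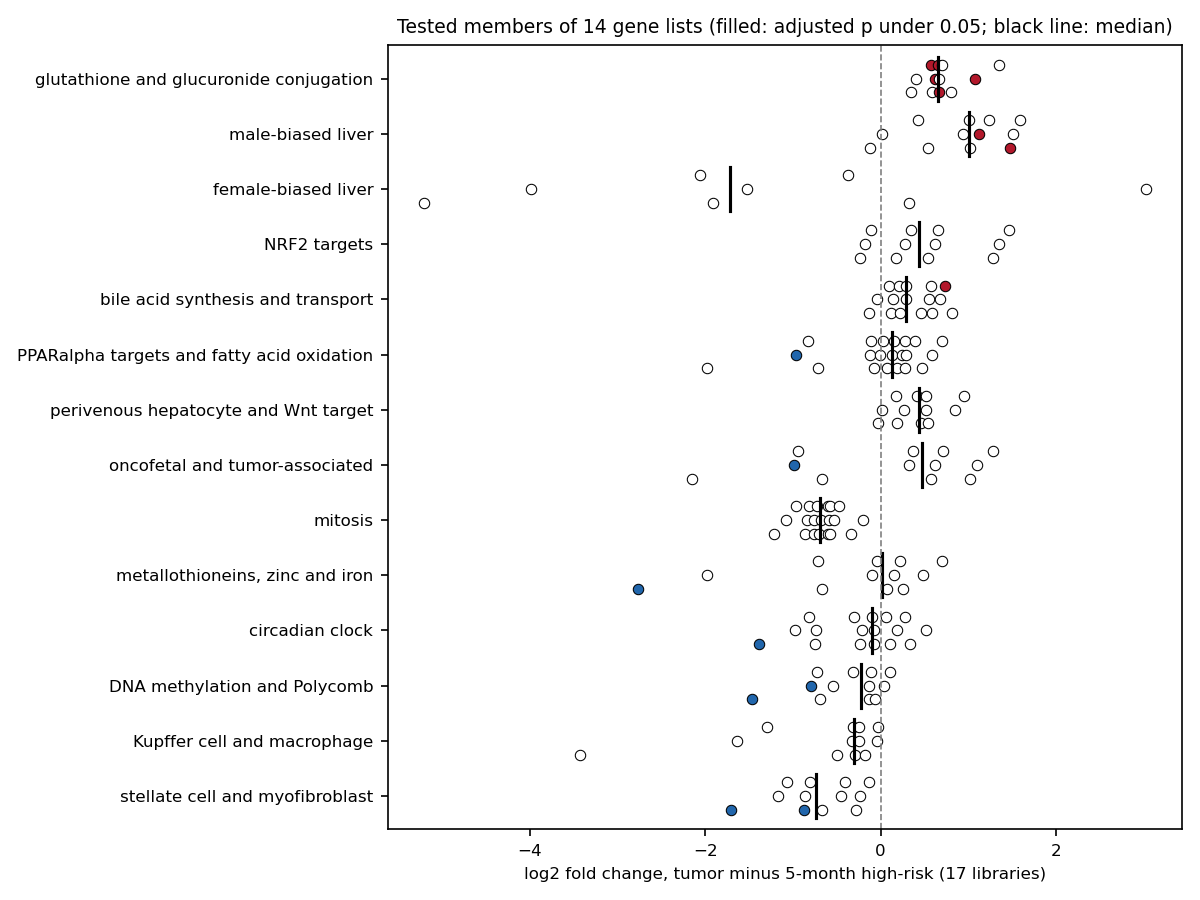
Each point is 1 tested gene of a list at its log2 fold change, tumor minus 5-month high-risk in the 17 libraries, filled red or blue where it was called higher or lower, and the black line is the list's median. All 12 points of the conjugation list lie right of 0 and all 20 mitosis and 12 stellate points left of it, most of them unfilled.

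Genes of mitosis and of fetal liver, often followed in liver tumors, were next. All 20 mitosis genes had a negative log2 fold change (median -0.69), 6 with an unadjusted p under 0.05 and 0 called by edgeR. Mki67, the proliferation antigen, had 6.12, 47.2 and 77.5 CPM in the lowest, median and highest tumor and 15.2, 114 and 147 CPM in high-risk livers (-1.08, SE 0.43, adjusted p = 0.14). The groups overlapped widely, with tumor 7 and high-risk 1 lowest in each. Mean Mki67 was 43.8 CPM in tumors and 93.0 in 5-month high-risk livers. It was 20.4 CPM in uninvolved liver and 3.56 to 9.51 in the vehicle and low-risk groups of both ages. In batch 1 the mitosis median was -0.34 with 4 genes positive, and the 19 tested genes of DNA replication went from a median of -0.13 to 0.31 (20 tested), with Tk1 called higher there (0.81, adjusted p = 0.0247). Of 12 tested oncofetal genes 8 were positive (median 0.47), and 1 was called, Cd24a, a surface glycoprotein, lower in tumors with 6.55 to 14.9 CPM against 7.64 to 37.7 CPM (-0.99, SE 0.23, adjusted p = 0.0289). Mean Cd24a was 11.8 CPM in tumors, 23.9 in 5-month high-risk livers and 10.8 in uninvolved liver. The vehicle and low-risk groups of both ages had means of 2.21 to 4.82 CPM, below the tumors. In vehicle livers Cd24a was also lower at 10 than at 5 months (-1.15, edgeR adjusted p = 0.0264). The oncofetal median was 1.25 in batch 1 (12 of 14 positive) and 0.95 with batch as a covariate (10 of 12), and Cd24a was called in neither (adjusted p = 0.092 and 0.142). H19, a fetal imprinted RNA, ranged from 5.34 to 1691 CPM in tumors and from 8.12 to 792 CPM in high-risk livers (0.71, SE 1.03, adjusted p = 0.698). Afp gave 0.32 (adjusted p = 0.713). Both spread so widely within groups that no difference was detectable.

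Of the metallothioneins Mt1 and Mt2, small proteins that bind zinc and copper, Mt2 was called lower in tumors. Mt1 was lower too, just short of the threshold. Their promoters carry metal response elements, and the genes lie next to each other on chromosome 8. The 250 bases before the start of each gene (RefSeq, GRCm38.p6) are shown. Capitals mark matches to the element's core, searched as TGCACNC and TGCGCNC on both strands.
Mt1: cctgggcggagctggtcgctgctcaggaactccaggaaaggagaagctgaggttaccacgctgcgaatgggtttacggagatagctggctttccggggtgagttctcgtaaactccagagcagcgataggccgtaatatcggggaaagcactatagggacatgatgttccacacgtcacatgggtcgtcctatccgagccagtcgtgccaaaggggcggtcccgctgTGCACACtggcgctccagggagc
Mt2: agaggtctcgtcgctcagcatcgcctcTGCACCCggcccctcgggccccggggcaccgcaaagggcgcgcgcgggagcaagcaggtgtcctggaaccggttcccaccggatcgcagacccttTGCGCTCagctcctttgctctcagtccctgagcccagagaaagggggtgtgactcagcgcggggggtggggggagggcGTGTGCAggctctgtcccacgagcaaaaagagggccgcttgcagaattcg
The Mt1 window is chr8:94178839-94179088 and the Mt2 window chr8:94172368-94172617, both on the plus strand. Mt1 holds 1 match and Mt2 holds 3, 1 of them on the minus strand. Of 32851 promoter windows of this length 21.4% hold at least 1 match and 1.26% hold 3 or more. The Mt2 window ends before the GENCODE start of the gene (94172664), and bases outside the windows were not searched. These counts are therefore not the full number of elements of either gene. Whether the matches bear on the levels was not tested.

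Mt2 had 1.07, 3.61 and 17.7 CPM in the lowest, median and highest tumor and 8.27, 29.8 and 89.3 CPM in high-risk livers (-2.77, SE 0.62, adjusted p = 0.0299, and -3.51, adjusted p = 0.0324, in batch 1). Only tumor 7 overlapped with the high-risk livers. The call was lost without tumor 1, 3, 5, 11 or 12 (adjusted p up to 0.0732). Mt1 had 10.8, 40.4 and 161 CPM in tumors and 55.3, 182 and 516 CPM in high-risk livers (-1.98, SE 0.56, adjusted p = 0.0569). Mt2 also differed with age in vehicle livers, from 53.4 CPM at 5 months (0 to 234) to 0.528 CPM at 10 months, a log2 fold change of -6.82 (adjusted p = 0.00286). The other 10 genes of zinc and iron handling were not called, and the list's median was 0.02.

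Per1, a core gene of the circadian clock that glucocorticoids also induce, had 5.02, 8.40 and 16.1 CPM in tumors and 16.2, 23.5 and 43.9 CPM in high-risk livers, which put all tumors just under the lowest liver. Its log2 fold change was -1.38 (SE 0.25, adjusted p = 0.0128) and the call held without any 1 library, while batch 1 alone gave -1.47 (adjusted p = 0.0797). It was the only 1 of 17 clock genes called (median -0.10). The times of day of collection are not given in the sources used here. Among 12 genes of DNA methylation and Polycomb, Tet1 (-1.46, SE 0.39, adjusted p = 0.0455) and Tet2 (-0.80, SE 0.21, adjusted p = 0.044) were called lower. Neither was called in batch 1 (adjusted p = 0.0801 and 0.0832) or with batch as a covariate (adjusted p = 0.098 and 0.0939). The list's median was -0.22 in the 17 libraries and -0.05 in batch 1. Tet1 was near the floor, with 0.425 to 1.45 CPM in tumors and 0.489 to 5.52 CPM in high-risk livers. Tet2 had 14.6 to 19.6 CPM in tumors and 14.3 to 50.1 CPM in high-risk livers, highest in high-risk 15 and 25, and the groups overlapped.

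A few calls were made in 5 further lists. Slc2a1, the GLUT1 glucose transporter (-0.46, SE 0.11, adjusted p = 0.0297), was the only 1 of 16 glycolytic genes, and Spry1, a feedback inhibitor of MAPK signalling (-0.68, SE 0.17, adjusted p = 0.0436), the only 1 of 14 MAPK genes. Hist1h4k, a histone H4 gene, was the only 1 of 47 tested clustered histones (-1.10, SE 0.28, adjusted p = 0.044). Psmb8, an immunoproteasome subunit, was the only call among 11 antigen presentation genes and was higher in tumors (0.75, SE 0.16, adjusted p = 0.0229), with 19.3 to 54.8 CPM against 13.7 to 29.3 CPM. Of these genes Spry1 was called in batch 1 (adjusted p = 0.0327). Slc2a1, Hist1h4k and Psmb8 were not (adjusted p = 0.128, 0.453 and 0.123), and none was called with batch as a covariate. Slc2a1 was also lower at 10 than at 5 months in vehicle livers (-0.50, adjusted p = 0.0286). Its mean was 12.7 CPM in tumors, 9.14 in 10-month vehicle and 7.66 in 10-month low-risk livers. Of 30 tested mitochondrially encoded genes, mt-Th and mt-Tl1, both tRNA genes, were called lower (-1.72, adjusted p = 0.0336, and -2.37, adjusted p = 0.0179), at means of 0.717 and 1.19 CPM in tumors. In batch 1, 7 of 31 were called lower, where high-risk 15 with its 14.5% of mitochondrial counts is 1 of 3 libraries, and 1 was called over all batches without high-risk 10 and 15. The part of RNA quality in this difference was not tested.

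**Figure D5:**
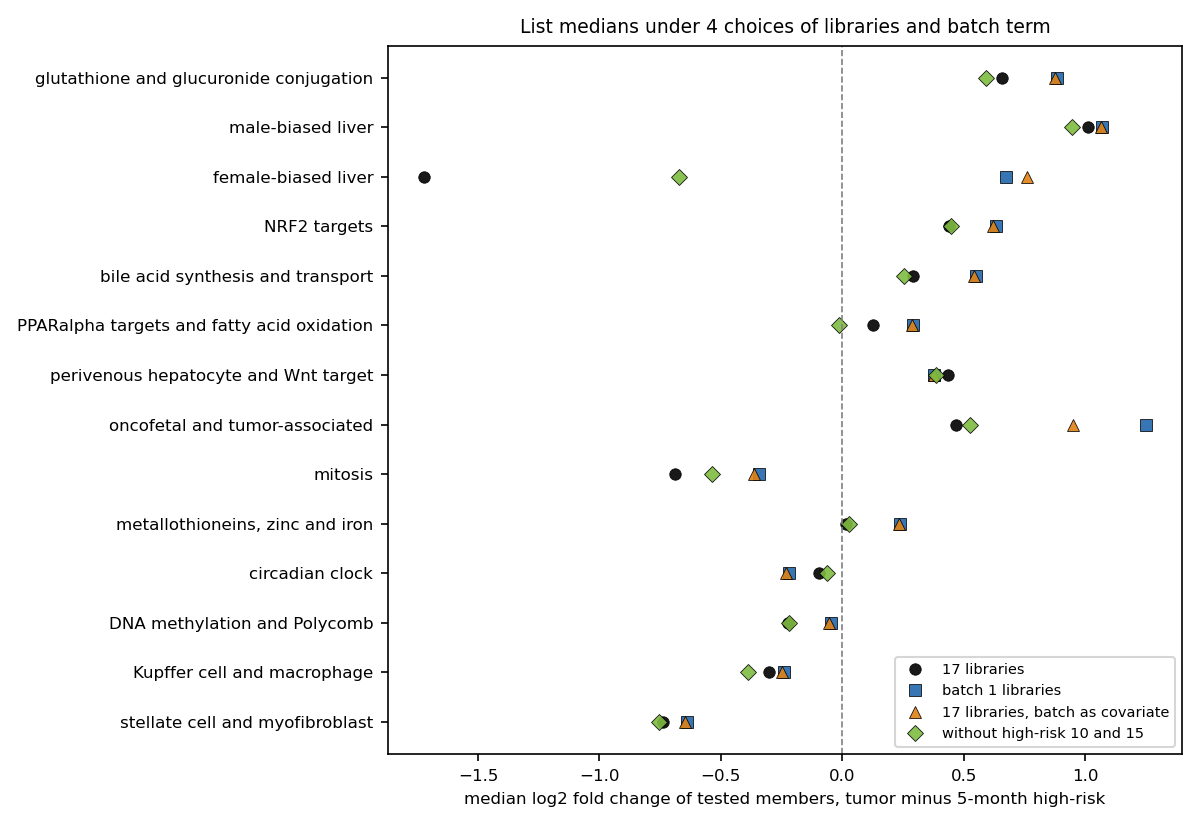
Points give the median log2 fold change of the tested members of 14 lists under 4 choices of libraries and batch term, as named in the legend. The stellate median stays between -0.75 and -0.64, whereas the female-biased median goes from -1.72 to 0.76.

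Among the marker lists of cells other than hepatocytes, the stellate list held the called genes. All 12 stellate cell and myofibroblast markers had a negative log2 fold change (median -0.74), 8 with an unadjusted p under 0.05 and 2 called. Lox, which cross-links collagen, had 1.09, 1.60 and 2.42 CPM in tumors and 1.63, 5.91 and 11.3 CPM in high-risk livers (-1.71, SE 0.32, adjusted p = 0.014, and -1.87, adjusted p = 0.0247, in batch 1), and was called without any 1 library. Only high-risk 1 and 22, at 1.63 and 1.65 CPM, lay within the tumor range. Col1a2, a chain of type I collagen, had 38.0, 66.0 and 90.2 CPM in tumors and 46.2, 119 and 192 CPM in high-risk livers (-0.88, SE 0.24, adjusted p = 0.0475, and -0.67, adjusted p = 0.131, in batch 1), a call lost in 14 of 17 cases of leaving out 1 library. Summed, the stellate markers held 550 to 932 CPM in tumors (median 708) and 632 to 1858 CPM in high-risk livers (median 1271), lowest in high-risk 1 and 22. In vehicle livers Col1a2 was at 21.9 ± 15.9 CPM (SD, n = 8) at 5 months and 10.0 ± 2.07 (n = 6) at 10 months, below the means of both groups compared here. Both called genes were also lower at 10 than at 5 months in vehicle livers, with a log2 fold change of -1.96 for Lox (adjusted p = 0.00564) and -1.12 for Col1a2 (adjusted p = 0.015).

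The 12 Kupffer cell markers were all negative too in the 17 libraries, with 0 called by edgeR, 3 at an unadjusted p under 0.05 and a median of -0.30, and their summed level overlapped (368 to 691 CPM in tumors, 321 to 817 in high-risk livers). In batch 1 and with batch as a covariate 3 of the 12 were positive (medians -0.24 and -0.25). Of 11 endothelial, 8 ductal, 8 B and plasma cell, 8 T and NK cell and 3 neutrophil markers tested, edgeR called 0, although all 3 neutrophil markers were negative (median -1.33) and 2 had an unadjusted p under 0.05. Erythroid markers summed to 159 to 308 CPM in tumors and 105 to 791 CPM in high-risk livers, highest in high-risk 1, 4 and 22 (median of 6 tested genes -1.27, 0 called by edgeR and 4 at an unadjusted p under 0.05). The part of these cells in the differences above was not tested.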

How the data were processed

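Stranded total RNA libraries of mouse liver (Illumina TruSeq, RNeasy and DNase, per the labels' protocols) were deposited by the authors as whole-number counts per gene in 1 table of 55536 genes. Per the submitters' processing notes Trim Galore, HISAT2 and featureCounts were used with mm10, and per the file name the counts were adjusted between batches with ComBat-seq, with group settings and strand setting not given in the sources used here. Such an adjustment can shrink or add differences where a group lies mostly in 1 batch, as here. Groups follow the labels. All gene identifiers matched GENCODE M21 (GRCm38), which gave positions and classes, and 0 value columns were left unmapped.

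Counts were fitted with edgeR 4.0.16 in R 4.3.3 (TMM, filterByExpr, robust quasi-likelihood F test, Benjamini-Hochberg over all genes tested, threshold 0.05) over the 17 libraries, then over batch 1. Age and uninvolved comparisons used 1 fit of 58 libraries of 5 and 10 months with batch as a covariate. It left out the 1 vehicle library labelled as a tumor and summed uninvolved 3 and 6, whose counts were far closer than those of other pairs. A standard error is the log2 fold change over the root of its F statistic. CPM are deposited counts per M counts (M, mega), not scaled to gene length, so levels are compared within a gene only.

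Named genes were up to 10 per direction with adjusted p under 0.05 in the 17 libraries and in batch 1 with the same sign, no overlap in CPM and at least 5 CPM in the higher group, predicted genes left out, and per gene list up to 2 called members or else its most abundant tested member. This gave 58 genes over 42 lists, of which 2 are not reported here. The members and lists were chosen with earlier results of these data known. The fits were tested on simulated counts. Alternatives were RLE size factors, no low-count filter, DESeq2 1.42.0, protein-coding genes only, batch terms and subsets, leaving out single or deviating libraries (over 35000 genes detected or over 10% mitochondrial counts), and the title number as a block.

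The title numbers 1 and 12 occur among tumors and 5-month high-risk livers, which differ in age and so are different mice. Tumor and uninvolved libraries share numbers at the same age. Their deviations from group means correlated at 0.22, 0.01, 0.49 and 0.17 for the numbers 1, 5, 7 and 12 over 18401 genes, against at most 0.06, 0.10, 0.13 and 0.04 with other numbers. The labels do not state that these are the same mice.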

Additional observations from a re-analysis of the deposited data

Results flagged for a closer look

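Among 116 groups of 7 tumors or 10 high-risk livers tested for a far value, where chance gives about 1 in 20, 4 named genes had 1 library apart from the rest of its group. Apol7a in high-risk 1 was at 80.9 CPM, with the next highest at 48.7, and its call held without that library. Qdpr in high-risk 15, the library with 14.5% mitochondrial counts, was at 93.0 CPM, with the next lowest at 128. The mitochondrial tRNA gene mt-Tl1 in high-risk 25 was at 0.240 CPM, with the next lowest at 2.27. Mki67 in tumor 7 was at 6.12 CPM, with the next lowest at 31, and tumor 7 also had the lowest summed level of the mitosis list (26.8 CPM).

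Genes whose tumor minus high-risk difference departed from the age difference of low-risk livers by the interaction test were Cyp4a31 (-3.09), Peg3 (-2.0), Unc13b (-1.36) and Dsg1c (2.44), all with edgeR.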

How the results depend on the processing

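The 493 genes called in the 17 libraries became 500 with RLE size factors, 484 without the low-count filter and 533 over protein-coding genes, all within 1.5 times. They became 1488 with DESeq2, 264 without high-risk 10 and 15, 85 with batch as a covariate, 298 with the batch 2 high-risk livers alone and 1056 in the fit of 58 libraries (698 higher and 358 lower), and they ranged from 63 to 1282 when 1 library was left out. Without high-risk 10 and 15 and with batch as a covariate, chosen after seeing the data, 0 were called by edgeR (1608 at an unadjusted p under 0.05). The title number as a replicate block over the numbers 1 and 12 left 1 gene, and the same 4 libraries without a block 0 (893 at an unadjusted p under 0.05). The numbers did not pair these samples: deviations correlated at 0.07 for 12 and -0.13 for 1. The 169 genes of batch 1 became 1293 with DESeq2 and 51 without high-risk 15, and ranged from 22 to 952 when 1 library was left out. Departures from the vehicle age difference were 0 except for 142 with DESeq2 and 2 in batch 1. Departures from the low-risk age difference were 41 with DESeq2, 0 in batch 1, and 1 to 4 without 1 low-risk library. Named genes called between tumor and uninvolved liver were 6, and 1 without the low-count filter, 11 with these groups fitted alone, 13 with the replicate block over 1, 5, 7 and 12, and 4 in the same 8 libraries without a block. Calls among list members were 23, then 14 without high-risk 10 and 15 and 5 with batch as a covariate.

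None of the 58 named genes changed sign in a comparison in which it was called. Apart from 2 named genes not reported here, signs changed in the following genes, none called in that comparison, with log2 fold changes as given, and the cause was not tested. Hist1h4k was called in the 17 libraries and not in batch 1.
Over the 17 libraries, Alb (-0.29) was 0.011 under the replicate block and 0.0196 in the same 4 libraries. Cd5l (-0.026) was 0.038 without the filter, 0.26 with the batch covariate, 0.36 under the replicate block, 0.29 in the same 4 libraries, 0.13 in the fit of 58 libraries and -0.15 to 0.11 when 1 library was left out. Cps1 (-0.037) was 0.033 without the filter, 0.046 with the batch covariate, 0.013 without high-risk 10 and 15 with the covariate, 0.20 in the fit of 58 libraries and -0.21 to 0.034 when 1 library was left out. Cxcr6 (0.17) was -0.10 under the replicate block and -0.20 in the same 4 libraries. Cyp2a4 (0.32) was -0.27 to 0.52 when 1 library was left out. Cyp2e1 (0.52) was -0.91 under the replicate block and -1.15 in the same 4 libraries. Egfr (-0.35) was 0.029 with batch 2 livers alone. Hnf4a (-0.056) was 0.013 without the filter and 0.032 without high-risk 10 and 15 with the covariate. Ighm (-0.041) was 0.018 without the filter, 0.24 with the batch covariate, 0.42 in the fit of 58 libraries and -0.34 to 0.23 when 1 library was left out. Irf7 (0.07) was -0.018 without high-risk 10 and 15, -0.18 without high-risk 10 and 15 with the covariate, -0.081 in the fit of 58 libraries and -0.082 to 0.16 when 1 library was left out. Mki67 (-1.08) was 0.28 under the replicate block. Pkhd1 (0.23) was -0.045 without high-risk 10 and 15 with the covariate. Rn7sk (0.11) was -0.017 with the batch covariate and -0.27 without high-risk 10 and 15 with the covariate. Stab2 (-0.10) was 0.24 under the replicate block, 0.20 in the same 4 libraries, 0.31 in the fit of 58 libraries and -0.17 to 0.048 when 1 library was left out. In batch 1, Alb (-0.094) was -0.19 to 0.092 when 1 library was left out. Cd5l (0.27) was -0.10 without high-risk 15 and -0.10 to 0.66 when 1 library was left out. Cps1 (0.045) was -0.13 to 0.18 when 1 library was left out. Hbb-bs (-1.08) was -1.55 to 0.18 when 1 library was left out. Hist1h4k (-0.45) was -0.72 to 0.12 when 1 library was left out. Hnf4a (-0.10) was 0.031 without high-risk 15 and -0.30 to 0.031 when 1 library was left out. Ighm (0.24) was -0.17 without high-risk 15 and -0.17 to 0.55 when 1 library was left out. Irf7 (0.016) was -0.18 without high-risk 15 and -0.18 to 0.45 when 1 library was left out. Pkhd1 (0.042) was -0.042 without high-risk 15 and -0.089 to 0.30 when 1 library was left out. Plin2 (-0.12) was -0.27 to 0.0012 when 1 library was left out. Rn7sk (-0.015) was -0.27 to 0.28 when 1 library was left out. Stab2 (-0.0083) was 0.0029 without the filter and -0.12 to 0.22 when 1 library was left out.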

Other observations

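The 6 genes given next lie outside the lists, were called lower in tumors and were chosen after their values were seen, so they stand for no group. Eln, elastin, had 5.51 to 12 CPM in tumors and 7.23 to 79.7 CPM in high-risk livers (log2 fold change -2.27, SE 0.40, adjusted p = 0.0126). Mfap4, a protein of elastic fibres, gave -2.11 (SE 0.37, adjusted p = 0.0116), and Fbln1, fibulin 1, gave -1.51 (SE 0.32, adjusted p = 0.0229). The secreted Wnt inhibitor Sfrp1 gave -1.93 (SE 0.37, adjusted p = 0.0144), the TGF-beta family ligand Gdf10 -1.84 (SE 0.33, adjusted p = 0.0126), and Hand2, a transcription factor of stellate cells, -1.34 (SE 0.26, adjusted p = 0.0175). All 6 were also called in batch 1, at -1.36 for Eln, -2.64 for Mfap4, -2.14 for Fbln1, -2.47 for Sfrp1, -2.36 for Gdf10 and -1.77 for Hand2. The stellate marker sum was lower in tumors beside them (median 708 CPM against 1271), and its part in these differences was not tested.

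Some hepatocyte genes, also named after their values were seen, are given over all libraries and in batch 1. Of them, Slc22a27 and Cyp2a22 were called only over all libraries. Slc22a27, an organic anion transporter, was called lower in tumors over 17 libraries (-3.08, adjusted p = 0.0382) and gave -0.35 in batch 1 (adjusted p = 0.657). Cyp2a22, a P450, went from -1.85 (adjusted p = 0.044) to 0.17 (adjusted p = 0.771). On the higher side, Ces1g, a carboxylesterase, was called in both, at 0.99 (adjusted p = 0.0204) and 1.51 (adjusted p = 0.0408). Ephx2, the soluble epoxide hydrolase, gave 0.82 (adjusted p = 0.044) and 0.90 (adjusted p = 0.0381), and the sulfotransferase Sult1b1 gave 1.21 (adjusted p = 0.0283) and 1.48 (adjusted p = 0.021).

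A single vehicle library carries a tumor label and is in none of the main comparisons. An alternative fit counted it as a vehicle liver. Departures from the vehicle age difference were 0 there by edgeR, with 2030 genes at an unadjusted p under 0.05. This vehicle library held 32.9 CPM of Serpina12, 13.3 of Dsg1c, 8.34 of Cyp4a31, 11.8 of Peg3, 64.4 of Sod3 and 28.2 of Per1, from 11.5 M counts of which 14.1% were mitochondrial.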
